A study of Homo sapiens with 5 samples.

Results

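Glycolysis and hypoxia genes were followed through 5 RNA libraries of WI-38 cells, a strain of human diploid lung fibroblasts. The list holds 36 genes in 7 roles: glucose and lactate transporters, upper glycolysis, the PFKFB regulators, lower glycolysis, enzymes of pyruvate fate, oxygen sensing and hypoxia targets. It was given by gene name, with earlier results of these libraries known. The tables held 48857 gene symbols with an annotated transcript, and 13036 genes were kept for comparison, among them 24 of the 36 members. The libraries were untransfected cells at population doubling level (PDL) 15, untransfected cells at PDL 55, and cells at PDL 15 transfected with a control siRNA, with AUF1 siRNA or with HuR siRNA. All came from total RNA of cells cultured in the same medium with serum, and no group is labelled as exposed to low oxygen. With a single library for every group there was no replicate error to set a difference against and no test was possible, so each ratio compares 2 libraries. Each comparison with control siRNA rests on 1 and the same library, as does each with PDL 15.

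Glycolysis splits glucose into pyruvate in the cytosol, with a net yield of ATP, and lactate dehydrogenase turns pyruvate into lactate to restore the cofactor the pathway needs. When oxygen is low, prolyl hydroxylases no longer mark HIF1A for destruction, and the stabilised factor raises transcription of many glycolytic genes and of VEGFA, NDRG1, BNIP3, CA9 and other targets. AUF1 (gene HNRNPD) and HuR (gene ELAVL1) bind AU-rich stretches in the 3′ untranslated regions of mRNAs, among them those of growth factors such as VEGFA, and are known to alter how long these mRNAs last. Fibroblasts near the end of their replicative life span divide rarely while staying metabolically active.

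Levels are given as FPKM, the fragments assigned per kilobase of a transcript after scaling for library size, summed over the annotated transcripts of a gene. The siRNA targets were at these levels in the order PDL 15, PDL 55, control siRNA, AUF1 siRNA and HuR siRNA: HNRNPD was at 119, 42.3, 61.2, 20.3 and 120.3 FPKM, and ELAVL1 at 16.7, 12.2, 11.8, 17.7 and 9.72 FPKM. Each was lowest in the library with its own siRNA, but ELAVL1 stood only 0.55 below control siRNA on the log2 scale and its 95% bounds there overlapped. The control siRNA library stood apart from the other 4. Its median coverage per unit of FPKM was 0.300 against 1.14 to 1.29 in the others, and 76.8% of its FPKM times length lay in transcripts without a gene, against 12.3% to 16.5%. Of 16 fibroblast markers 12 to 15 reached 1 FPKM in every library, with a summed level of 2337 to 10893 FPKM. However, VIM, PDGFRA, PDGFRB and TBX4 were listed at 0 with control siRNA, PDGFRA and THY1 at PDL 15, and THY1 at PDL 55. Summed levels were 7.21 to 18.0 FPKM for 12 epithelial, 6.05 to 16.3 for 8 measured endothelial and 1.66 to 23.9 for 9 blood markers. The most abundant of these were KRT19, up to 9.24 FPKM, KRT18, at 4.87 at PDL 55, TEK, at 4.19 to 13.9, and CD68, at 15.5 to 18.5 in the transfected libraries against 2.80 at PDL 15 and 0 at PDL 55. KRT5, KRT14 and NKX2-1 were listed at 0 in all 5. The part of these differences in the results below was not tested. In such bulk RNA, fewer cells with an mRNA and less mRNA per cell cannot be told apart.

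Of the 12 members without a comparison, 6 had a transcript of status FAIL in at least 1 library, a mark for a failed estimate: the triosephosphate isomerase TPI1, the mutase PGAM1, the enolases ENO1 and ENO2, the kinase PDK1 and the mitophagy receptor BNIP3L. A further 3 had a mean under 1 FPKM: PFKFB2, PFKFB4 and the prolyl hydroxylase EGLN3. The carbonic anhydrase CA9 and the ankyrin repeat gene ANKRD37 were listed at 0 in all 5 libraries, as were ENO2 and BNIP3L. ADM, the vessel-dilating peptide adrenomedullin, has no value for PDL 15 here; it was at 8.33 FPKM at PDL 55, 4.72 with control siRNA, 6.47 with AUF1 siRNA and 5.83 with HuR siRNA. All of ADM's FPKM lay in transcripts of status LOWDATA, a mark for loci with too few fragments or too complex to resolve fully. Of the 24 members kept, 13 had some FPKM in LOWDATA transcripts and 3 were listed at 0 in at least 1 library. An exact 0 in such a table can be a failed estimate, so a member at 0 in either library of a pair has no ratio.

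**Figure D1:**
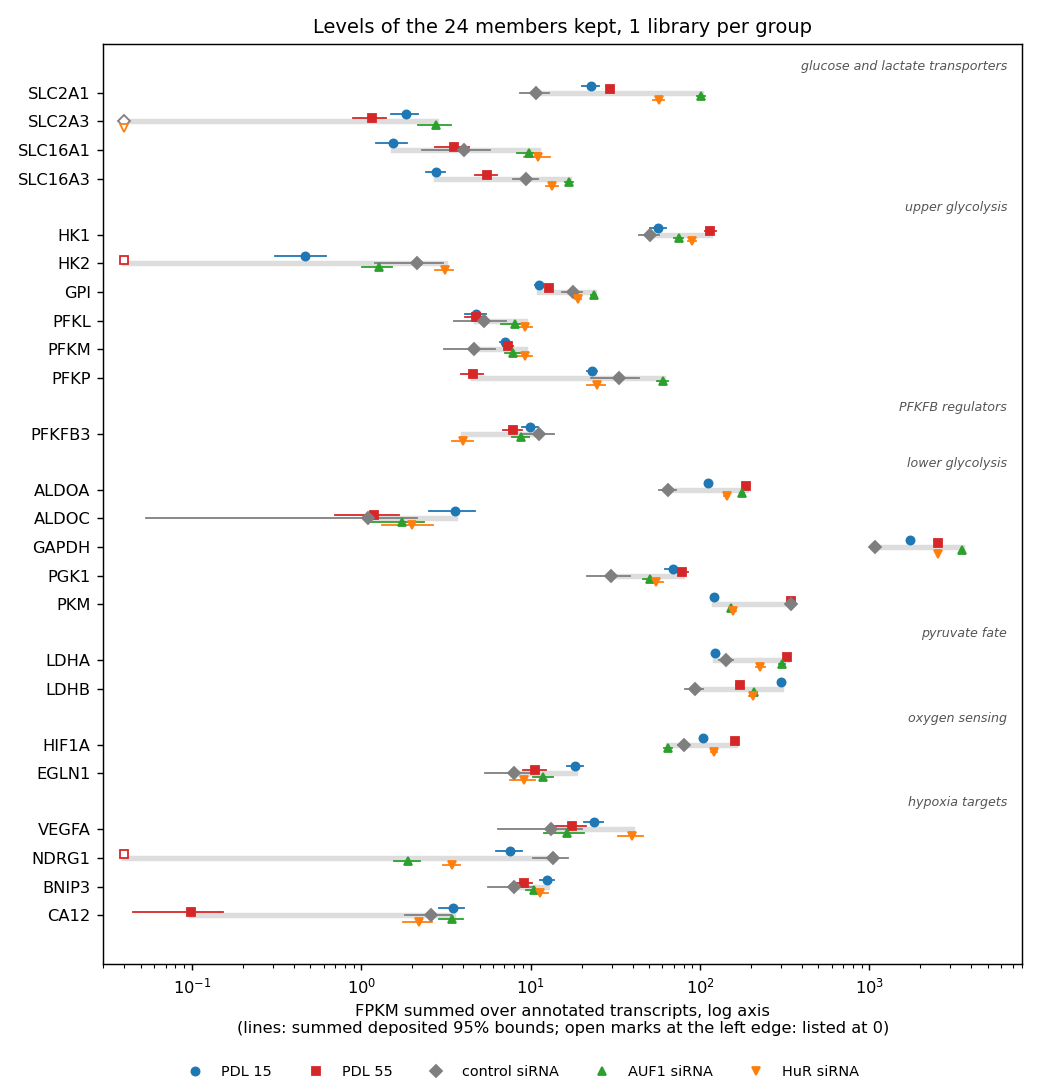
FPKM of the 24 members kept (x axis, log scale), grouped by role, with 1 mark per library and lines for the summed deposited 95% bounds; open marks at the left edge are listed at 0. GAPDH lies highest, at 1079 to 3541 FPKM, and the control siRNA mark is the lowest of the 5 for 12 of the 24 members.

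The summed FPKM of the 24 members was 2783 at PDL 15, 4036 at PDL 55, 2029 with control siRNA, 4859 with AUF1 siRNA and 3747 with HuR siRNA. GAPDH alone made up 53.2% to 72.9% of these sums, and without it they were 1038, 1501, 950.2, 1318 and 1217 FPKM in the same order. Control siRNA gave the lowest sum by either count. It held the lowest level of 12 members, against 5 each for PDL 15 and PDL 55 and 1 each for AUF1 siRNA and HuR siRNA.

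In late against early passage 8 members were at least 2-fold apart, relative to the median gene. At PDL 55 the lactate exporters SLC16A1 and SLC16A3, the hexokinase HK1, the aldolase ALDOA, the pyruvate kinase PKM and the lactate dehydrogenase LDHA stood at least 2-fold higher than at PDL 15, and the phosphofructokinase PFKP and the carbonic anhydrase CA12 at least 2-fold lower. Ratios are log2((FPKM + 1)/(FPKM + 1)), which understates differences at low levels, and are given relative to the median of all genes, because that median moved by -0.32 here. Thus 6 of 22 members were higher, where 8.17% of 12233 genes were, and 2 of 22 were lower, where 8.08% of genes were. The member median was 0.44, with 14 members above 0, while the middle 50% of all genes ran from -0.42 to 0.44. On the deposited scale, without subtracting the median, the member median was 0.11 and 3 members were at least 2-fold higher. PFKP (-2.12), CA12 (-2.02) and ALDOC (-1.07) were at least 2-fold lower on that scale. With assembled transcripts 6 members were higher and 3 lower.

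With AUF1 siRNA the glucose transporter SLC2A1, GAPDH and ALDOA stood at least 2-fold above control siRNA, and PKM and the hypoxia target NDRG1 at least 2-fold below. That is 3 of 23 members higher beside 7.46% of 12124 genes, and 2 of 23 lower beside 9.54% of genes. The member median was 0.35, and 18 of 23 members lay above 0. The median of all genes moved by 0.18.

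With HuR siRNA, SLC2A1 and the vascular growth factor VEGFA stood at least 2-fold above control siRNA, and the bifunctional regulator PFKFB3, PKM and NDRG1 at least 2-fold below. These counts were 2 of 23 higher beside 8.14% of 12107 genes and 3 of 23 lower beside 10.0% of genes. The higher count was 6 on the deposited scale and 1 with assembled transcripts, and the lower count 3 and 0, so these counts depend on the scale and the transcripts summed. The member median was 0.29, with 16 of 23 above 0, and the median of all genes moved by 0.30.

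The knockdown libraries were also set against each other, which leaves out the control library. PFKP and PFKFB3 were at least 2-fold higher with AUF1 siRNA than with HuR siRNA, and VEGFA at least 2-fold lower. The counts were 2 of 23 beside 4.66% of 12310 genes and 1 of 23 beside 4.52% of genes. The member median was 0.087 and the all-gene shift -0.12. Both these shares of all genes were lower than in any comparison with the control library.

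Control siRNA against PDL 15 compares 2 libraries at the same doubling level without a named knockdown. SLC16A1, SLC16A3, HK2, the isomerase GPI, PKM and NDRG1 were at least 2-fold higher with control siRNA and LDHB, the other lactate dehydrogenase subunit, at least 2-fold lower. So 6 of 23 members were higher beside 12.2% of 12113 genes, and 1 of 23 was lower beside 8.97% of genes. The member median was 0.10, and the median of all genes moved by -0.41. This balance turned on the deposited scale, where 3 members were higher and 5 lower and the member median was -0.31, and with assembled transcripts 3 were higher and 1 lower.

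Over the 5 comparisons there were 28 such differences in 16 of the 24 members, and in 0 of the 28 did the summed 95% bounds of the libraries overlap. These bounds describe the estimate within 1 library, not the spread between cultures.

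The transporters carry glucose in and lactate out. SLC2A1, which encodes the widely expressed glucose transporter GLUT1 (chr1:43391519-43424530 in hg19, the build of all gene positions here unless stated), was at 22.7 FPKM at PDL 15, 29.4 at PDL 55, 10.8 with control siRNA, 102 with AUF1 siRNA and 57.0 with HuR siRNA. On these annotated transcripts both knockdown libraries lay above the other 3, and control siRNA lay below them all. The ratio to control siRNA was 2.94 with AUF1 siRNA and 2.00 with HuR siRNA. Against PDL 15 in place of control siRNA these were 2.33 and 1.38. Part of the FPKM lay in a 585-nt transcript, at 13.8 FPKM at PDL 15, 53.2 with AUF1 siRNA, where its status was LOWDATA, and 35.9 with HuR siRNA. The 1700-nt transcript stood at 48.7 FPKM with AUF1 siRNA and 21.1 with HuR siRNA. It was at 8.92 FPKM at PDL 15, 29.4 at PDL 55 and 10.8 with control siRNA. Without any transcript that is LOWDATA in some library, the ratios to control siRNA were 1.92 and 0.64. PDL 55 then stood 1.92 above PDL 15, against 0.68 on all annotated transcripts. With transcripts assembled from the reads added, SLC2A1 was at 29.9, 45.9, 36.2, 129 and 80.7 FPKM in the library order above, so control siRNA lay above PDL 15, and the ratios to control siRNA were 1.61 and 0.82. The difference with HuR siRNA was thus under 2-fold in either of these sums.

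SLC16A3 encodes MCT4, the lactate exporter of glycolytic cells (chr17:80186293-80197369). It was at 2.75 FPKM at PDL 15, 5.54 at PDL 55, 9.44 with control siRNA, 16.8 with AUF1 siRNA and 13.4 with HuR siRNA. Its lowest library was PDL 15, and all 3 transfected libraries lay above both untransfected ones. None of this FPKM was LOWDATA and no assembled transcript was attached to the gene. PDL 55 stood 1.12 above PDL 15, but 0.72 below control siRNA (-0.72), and control siRNA stood 1.88 above PDL 15. Set against PDL 15, the knockdown libraries stood at 2.46 with AUF1 siRNA and 2.03 with HuR siRNA, and against control siRNA at 0.59 and 0.16.

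SLC16A1 encodes MCT1, which moves lactate in either direction (chr1:113454469-113499635). It was at 1.54 FPKM at PDL 15, 3.54 at PDL 55, 4.01 with control siRNA, 9.75 with AUF1 siRNA and 11.1 with HuR siRNA. The 2 knockdown libraries were highest and PDL 15 was lowest. With assembled transcripts the order was the same but the levels were closer, at 5.90, 6.02, 7.52, 9.75 and 11.1 FPKM in the library order above. The ratios to PDL 15 then fell under 2-fold, from 1.16 to 0.34 for PDL 55 and from 1.39 to 0.72 for control siRNA, and weighted by transcript length they turned to -0.48 and -0.22. At PDL 55 and with control siRNA all of its FPKM was in an 865-nt LOWDATA transcript, so no ratio to them remained without such transcripts. SLC2A3, the high-affinity glucose transporter GLUT3, was listed at 0 in the control and HuR siRNA libraries and was at 2.78 FPKM with AUF1 siRNA, 1.83 at PDL 15 and 1.15 at PDL 55. Assembled transcripts held 82.5% of its FPKM over the 5 libraries. With them SLC2A3 was at 7.07, 6.10, 4.23, 7.89 and 7.54 FPKM in the library order above, so HuR siRNA was second highest and control siRNA lowest.

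Upper glycolysis traps glucose as a phosphate and prepares it for cleavage. HK1, the hexokinase of most tissues (chr10:71029740-71161638), was at 56.6 FPKM at PDL 15, 115 at PDL 55, 50.4 with control siRNA, 74.9 with AUF1 siRNA and 89.9 with HuR siRNA. PDL 55 was the highest library and stood 1.34 above PDL 15 and 1.13 above control siRNA. Most of this FPKM was in short transcripts, one of 620 nt, at 28.5 to 77.8 FPKM, and one of 314 nt that was above 0 only at PDL 15 (21.6) and PDL 55 (42.6).

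HK2, the inducible hexokinase (chr2:75061108-75120486), was at 0.466 FPKM at PDL 15, 2.12 with control siRNA, 1.27 with AUF1 siRNA and 3.11 with HuR siRNA, and was listed at 0 at PDL 55. HuR siRNA was the highest of the 4 with a value and PDL 15 the lowest. Transcripts assembled from the reads change the order of these libraries. With them HK2 was at 3.51 FPKM at PDL 15, 18.0 at PDL 55, 4.82 with control siRNA, 5.58 with AUF1 siRNA and 7.73 with HuR siRNA, so PDL 55 went from lowest to highest, and control siRNA stood 0.78 above PDL 15, under 2-fold.

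GPI, which turns glucose 6-phosphate into fructose 6-phosphate (chr19:34855645-34893318), was at 11.1 FPKM at PDL 15, 12.8 at PDL 55, 17.7 with control siRNA, 23.5 with AUF1 siRNA and 19.1 with HuR siRNA. All 3 transfected libraries lay above both untransfected ones. Control siRNA stood 1.03 above PDL 15, which was 0.62 on the deposited scale.

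The phosphofructokinases catalyse the committed step. PFKP, the platelet form (chr10:3109712-3179904), was at 23.1 FPKM at PDL 15, 4.56 at PDL 55, 33.2 with control siRNA, 60.2 with AUF1 siRNA and 24.6 with HuR siRNA. PDL 55 was the lowest library, 1.79 below PDL 15 (-1.79), and -2.67 against control siRNA. At PDL 15 and PDL 55 none of this FPKM was LOWDATA or assembled. The ratio between them, -1.81 without LOWDATA transcripts and -1.80 with assembled ones, could thus shift only with the median gene. AUF1 siRNA was the highest library, 1.38 above HuR siRNA (0.96 with assembled transcripts) and 0.66 above control siRNA. The latter was 0.53 with assembled transcripts, but 1.28 without LOWDATA ones, 1.31 weighted by length and 2.02 with 1 transcript. With control siRNA, 11.5 and 12.2 FPKM lay in transcripts of 453 and 496 nt, both at 0 at PDL 15 and PDL 55. The muscle form PFKM was at 4.60 to 9.25 FPKM and the liver form PFKL at 4.76 to 9.21 FPKM, and neither was 2-fold apart in any of the 5 comparisons. As a share of the FPKM of PFKP and PFKM together, PFKP held 76.5% at PDL 15, 38.2% at PDL 55, 87.8% with control siRNA, 88.4% with AUF1 siRNA and 72.6% with HuR siRNA.

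The PFKFB enzymes set the level of fructose 2,6-bisphosphate, the activator of phosphofructokinase. PFKFB3, whose kinase activity far exceeds its phosphatase activity (chr10:6186881-6277495), was at 9.95 FPKM at PDL 15, 7.87 at PDL 55, 11.2 with control siRNA, 8.78 with AUF1 siRNA and 3.99 with HuR siRNA. HuR siRNA was the lowest library, at -1.60 against control siRNA, -1.04 against PDL 15 and 1.10 below AUF1 siRNA. A 3856-nt transcript, at 3.30 to 4.39 FPKM in the other 4 libraries, was listed at 0 there, and an assembled transcript of 3764 nt was at 2.17 FPKM. With assembled transcripts the ratio to control siRNA was -0.99 and AUF1 siRNA stood 0.66 above HuR siRNA, both under 2-fold. PFKFB2 did not exceed 2.45 FPKM and PFKFB4 did not exceed 2.58 FPKM.

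Lower glycolysis yields ATP and pyruvate. ALDOA, the aldolase of muscle and most cells (chr16:30064444-30081741), was at 111 FPKM at PDL 15, 188 at PDL 55, 64.9 with control siRNA, 177 with AUF1 siRNA and 144 with HuR siRNA. PDL 55 and AUF1 siRNA were highest and control siRNA was lowest. PDL 55 stood 1.07 above PDL 15 and 1.47 above control siRNA, and AUF1 siRNA 1.25 above control siRNA and 0.88 above PDL 15. None of the FPKM of ALDOA was LOWDATA or assembled. With HuR siRNA its transcripts shared a gene identifier with the neighbouring PPP4C. ALDOC, the brain form, was at 1.09 to 3.59 FPKM, highest at PDL 15.

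GAPDH, the dehydrogenase often used as a reference gene (chr12:6643093-6647537), was at 1745 FPKM at PDL 15, 2535 at PDL 55, 1079 with control siRNA, 3541 with AUF1 siRNA and 2530.3 with HuR siRNA. AUF1 siRNA was 1.53 above control siRNA and 1.24 above PDL 15. The order of the 5 libraries was that of ALDOA except that PDL 55 and AUF1 siRNA changed places. GENCODE names 62 pseudogenes after GAPDH, and reads of near-identical copies may have been split among them, so its levels are uncertain. The same holds with fewer copies for PGAM1 (13), LDHA (6), PKM (5), TPI1 and ENO1 (4 each), and for BNIP3 (39). PGK1, the first ATP-making kinase, was at 68.8, 77.7, 29.9, 50.9 and 55.2 FPKM in the library order above and was not 2-fold apart in any comparison.

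Among the members without a ratio, TPI1 was at 90.7 FPKM at PDL 15, 91.3 at PDL 55, 79.7 with control siRNA and 187 with AUF1 siRNA, nearly all LOWDATA, and FAIL left it at 0 with HuR siRNA. PGAM1 was at 28.2, 42.3, 31.9 and 33.1 FPKM outside the control library, where it was FAIL. ENO1 was at 72.0 FPKM at PDL 15 and at 88.0 and 58.0 FPKM after AUF1 and HuR siRNA, and was FAIL at PDL 55 and with control siRNA. These values have gaps in at least 1 library each and were not compared.

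PKM, the last enzyme of the pathway (chr15:72491370-72523684), was at 121 FPKM at PDL 15, 345 at PDL 55, 344 with control siRNA, 152 with AUF1 siRNA and 157 with HuR siRNA on annotated transcripts. PDL 55 and control siRNA formed the high libraries and the other 3 the low ones. The ratios were 1.82 for PDL 55 and 1.90 for control siRNA against PDL 15, and relative to control siRNA -1.35 with AUF1 siRNA and -1.43 with HuR siRNA. With assembled transcripts the levels were 333, 405, 344, 365 and 454 FPKM in the library order above, so the libraries no longer formed 2 groups. The same 4 ratios then were 0.60, 0.46, -0.11 and 0.078. The assembled transcripts of PKM were at 297 FPKM with HuR siRNA, 213 with AUF1 siRNA, 136 and 75.4 at PDL 15 and 60.5 at PDL 55, and the control library had none. In all 5 libraries PKM shared a gene identifier with its neighbour PARP6.

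LDHA and LDHB encode the subunits of lactate dehydrogenase, of which LDHA favours lactate formation. LDHA (chr11:18415935-18429972) was at 123 FPKM at PDL 15, 328 at PDL 55, 143 with control siRNA, 304 with AUF1 siRNA and 227 with HuR siRNA. LDHB (chr12:21788276-21910791) was at 299, 172, 93.1, 207 and 205 FPKM in the library order above. PDL 15 was the lowest library for LDHA and the highest for LDHB. LDHA thus held 29.2% of the summed FPKM of both at PDL 15, 65.6% at PDL 55, 60.6% with control siRNA, 59.5% with AUF1 siRNA and 52.5% with HuR siRNA. Of the FPKM of LDHB, 60.0% to 66.7% was LOWDATA in each library. On transcripts never LOWDATA, LDHA was at 123, 78.2, 29.7, 81.8 and 113 FPKM in the same order. LDHB was at 119, 67.6, 31.0, 82.6 and 79.5 FPKM there. PDL 15 was then the highest library for both genes, and LDHA was no longer below LDHB at PDL 15.

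The transcripts behind LDHA differed between PDL 15 and the rest. At PDL 15 all 123 FPKM lay in 1 transcript of 582 nt, which was at 0 in the other 4 libraries. Those libraries held LDHA in transcripts of 1310 to 1922 nt, with 250 FPKM LOWDATA at PDL 55, 113 with control siRNA, 222 with AUF1 siRNA and 114 with HuR siRNA. PDL 55 stood 1.73 above PDL 15 in the full sum and 1.14 above control siRNA, but -0.35 against PDL 15 without LOWDATA transcripts and 2.89 when each transcript's FPKM was weighted by its length. LDHB was 1.26 lower with control siRNA than at PDL 15 (-1.26), and -1.52 without LOWDATA transcripts. The kinase PDK1 was at 12.2 FPKM at PDL 15 and listed at 0 in the other 4, with FAIL in 2 of them.

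Oxygen sensing turns oxygen into stability of HIF1A. HIF1A itself (chr14:62162258-62214976) was at 103 FPKM at PDL 15, 160 at PDL 55, 80.1 with control siRNA, 64.7 with AUF1 siRNA and 121 with HuR siRNA. PDL 55 was highest and AUF1 siRNA lowest, with no LOWDATA or assembled transcript. No ratio reached 2-fold: 0.95 for PDL 55 against PDL 15, -0.77 for AUF1 siRNA against HuR siRNA, and relative to control siRNA -0.49 with AUF1 siRNA and 0.29 with HuR siRNA. HIF1A protein, the level at which oxygen acts, was not measured. EGLN1, the main prolyl hydroxylase, was at 18.3 FPKM at PDL 15 and 7.93 to 11.9 in the other 4, largely in an 829-nt transcript, and was not 2-fold apart. EGLN3, a hydroxylase that HIF itself induces, stayed under 1 FPKM throughout, at 0.0701 to 0.934.

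Among the 4 hypoxia targets kept, the highest library was PDL 15 for BNIP3 and CA12, HuR siRNA for VEGFA and control siRNA for NDRG1. VEGFA (chr6:43737921-43754224) was at 23.7 FPKM at PDL 15, 17.6 at PDL 55, 13.2 with control siRNA, 16.3 with AUF1 siRNA and 39.4 with HuR siRNA. HuR siRNA was the highest library, 1.21 above control siRNA, 0.80 above PDL 15 and 1.10 above AUF1 siRNA. All 13.2 FPKM with control siRNA and 25.8 of the 39.4 with HuR siRNA were LOWDATA. On the other transcripts PDL 15 was the highest library, at 17.0 FPKM against 13.6 with HuR siRNA. There VEGFA was -0.85 with AUF1 siRNA against HuR siRNA, and had no ratio to control siRNA. Weighted by transcript length, HuR siRNA stood 0.90 above control siRNA, under 2-fold.

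NDRG1, a stress-induced differentiation gene (chr8:134249414-134314265), was at 7.59 FPKM at PDL 15, 13.5 with control siRNA, 1.90 with AUF1 siRNA and 3.44 with HuR siRNA, and was listed at 0 at PDL 55. These values came from different transcripts: one of 560 nt at PDL 15, one of 888 nt with control siRNA and one of 2818 nt in the knockdown libraries. The ratios to control siRNA were -2.50 and -2.01. With assembled transcripts NDRG1 was at 22.8, 133, 32.2, 28.4 and 39.5 FPKM in the library order above, and these ratios were -0.38 and -0.033. Assembled transcripts held 89.7% of its FPKM over the 5 libraries.

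CA12, a membrane carbonic anhydrase that handles acid outside the cell (chr15:63613577-63674360), was at 3.46 FPKM at PDL 15, 0.0991 at PDL 55, 2.60 with control siRNA, 3.44 with AUF1 siRNA and 2.18 with HuR siRNA. PDL 55 was far below the other 4, with or without assembled transcripts, which raised it to 0.364 FPKM and the others to 2.57 to 6.72. The ratio of PDL 55 was -1.70 to PDL 15 and -1.76 to control siRNA. Without LOWDATA transcripts it was -0.66, as 2.31 of the 3.46 FPKM at PDL 15 were LOWDATA. BNIP3, the mitophagy receptor, varied least among the 4 hypoxia targets kept, from 8.02 FPKM with control siRNA to 12.5 at PDL 15.

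Assembled transcripts, which each library's table lists beside the annotated ones, changed many of the calls. Of 28 differences of at least 2-fold, 14 stayed at least 2-fold in the same direction when assembled transcripts of the gene were added, 13 kept the direction at under 2-fold and 1 turned. Those that stayed were SLC16A3, HK1, ALDOA and LDHA higher and PFKP and CA12 lower at PDL 55, SLC2A1, GAPDH and ALDOA higher with AUF1 siRNA, VEGFA higher with HuR siRNA and lower with AUF1 siRNA than with HuR siRNA, and SLC16A3, GPI and LDHB for control siRNA against PDL 15. The 1 that turned was PKM with HuR siRNA, from -1.43 to 0.078. Of those that stayed, only SLC2A1 and GAPDH with AUF1 siRNA and CA12 at PDL 55 had assembled transcripts in a library of the pair. For the others nothing was added, so their staying was fixed in advance and is no check. All that fell under 2-fold or turned had assembled transcripts in at least 1 library of the pair. Without LOWDATA transcripts 20 of the 28 stayed at least 2-fold, 3 were under 2-fold in the same direction, 1 turned (LDHA at PDL 55) and 4 had no ratio. Among the 20, SLC16A3, GPI, ALDOA, PKM, PFKFB3 and HK2 had no LOWDATA FPKM in any library, so nothing was taken out there. Nor was anything taken out for NDRG1 in the knockdown comparisons with control siRNA, or for PFKP in the pairs where it was 2-fold apart. Their staying was fixed in advance as well. Only HK1, SLC2A1, GAPDH and LDHB among the 20 lost FPKM. With assembled transcripts, 2 members that have no ratio on annotated ones were higher at PDL 55 than at PDL 15, HK2 at 2.39 and NDRG1 at 2.81.

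**Figure D2:**
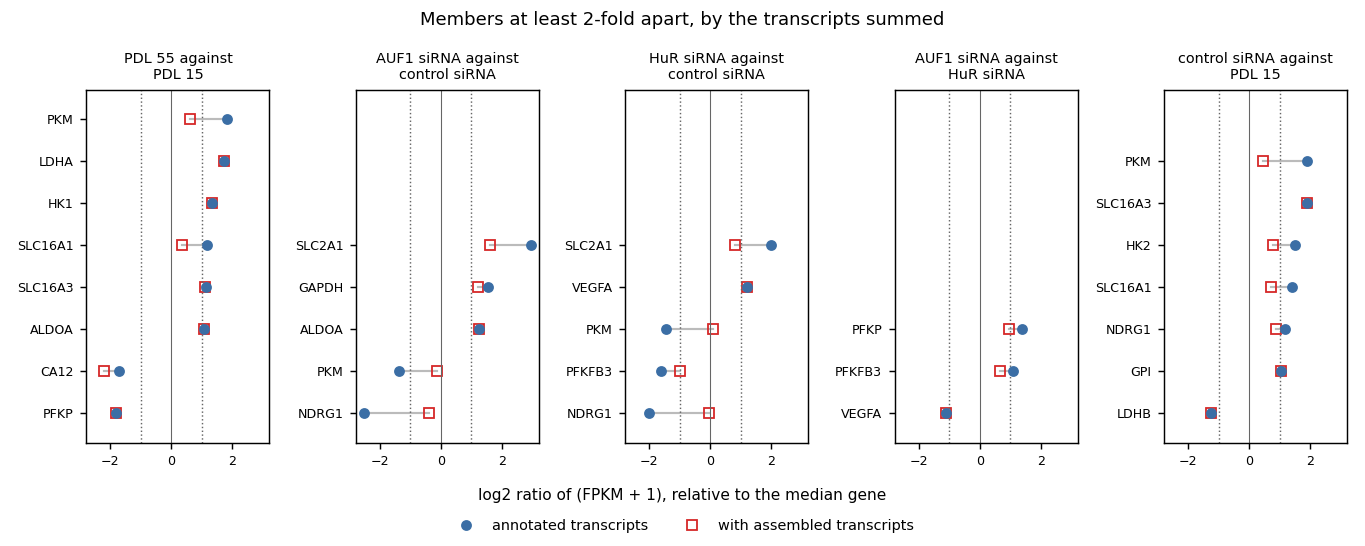
Members at least 2-fold apart in each comparison, with the log2 ratio relative to the median gene (x axis) from annotated transcripts (filled circles) and with assembled transcripts added (open squares); dotted lines mark 2-fold. PKM and NDRG1 move to under 2-fold in every panel that shows them, and PFKP does so for AUF1 siRNA against HuR siRNA. LDHA, HK1, ALDOA, SLC16A3, GPI, LDHB and VEGFA had no assembled transcripts, so both their marks hold the same FPKM and differ only by the median gene.

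HIF binds a core of letters ACGTG in the control regions of its targets. It is marked on either strand (the reverse strand reads CACGT, and CACGTG holds both, overlapping). Windows around the start sites are shown with the core in capitals. They come from the 3 members without assembled transcripts that stood higher at PDL 55 and had the core in a window. Each is the 300-base window from 250 bases before to 50 after a start, from RefSeq on GRCh38.p14: SLC16A3 at chr17:82228792-82229091, plus strand, LDHA at chr11:18394313-18394612, plus strand, and ALDOA at chr16:30064247-30064546, plus strand.
SLC16A3: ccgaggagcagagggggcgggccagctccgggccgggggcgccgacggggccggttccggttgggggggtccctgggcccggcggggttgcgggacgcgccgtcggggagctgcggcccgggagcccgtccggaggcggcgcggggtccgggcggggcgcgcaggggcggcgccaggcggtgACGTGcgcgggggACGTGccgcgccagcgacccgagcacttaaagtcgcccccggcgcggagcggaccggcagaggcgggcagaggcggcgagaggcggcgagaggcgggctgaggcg
LDHA: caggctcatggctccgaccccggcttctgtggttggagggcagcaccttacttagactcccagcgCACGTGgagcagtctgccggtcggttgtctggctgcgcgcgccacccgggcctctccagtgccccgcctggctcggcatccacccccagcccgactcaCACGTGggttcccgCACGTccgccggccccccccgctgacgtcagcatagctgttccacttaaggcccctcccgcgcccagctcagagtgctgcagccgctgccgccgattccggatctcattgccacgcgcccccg
ALDOA: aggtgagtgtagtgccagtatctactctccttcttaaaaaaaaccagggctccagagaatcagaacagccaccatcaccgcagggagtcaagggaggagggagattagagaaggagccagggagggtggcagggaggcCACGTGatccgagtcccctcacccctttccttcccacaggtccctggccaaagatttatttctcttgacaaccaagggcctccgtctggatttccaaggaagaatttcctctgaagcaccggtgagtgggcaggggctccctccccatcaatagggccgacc
Counting each strand, the core occurred 2 times in the window shown for SLC16A3, 5 times in that for LDHA and 2 times in that for ALDOA. A gene can have several annotated starts, and for each gene a window with the most cores is shown. SLC16A3 had 5 windows and the core in only 1 of them, LDHA had 2 and the core in 1, and ALDOA had 3 and the core in all 3.

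The windows of HK1 and PKM, also higher at PDL 55, and of SLC2A1 held no ACGTG. RefSeq windows were found for 30 of the 36 members and not for SLC2A3, SLC16A1, PFKFB2, VEGFA, NDRG1 and BNIP3L. The core was in at least 1 window of 18 of these 30 genes (60.0%), against 24.9% of 27305 genes, and in 38.6% of 57 member windows against 21.4% of 35116 windows. CA9 and ANKRD37, listed at 0 here, also held it. A match says only that the letters are in the window, and the members were listed partly because they are known hypoxia targets.

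AU-rich elements are the sequences that AUF1 and HuR are known to bind, and the sites of HIF1A and of the 2 members with a site that stood 2-fold apart between the knockdown libraries are shown with the nonamer TTATTTATT in capitals. Each site is 29 bases of the mRNA strand from the longest annotated 3′UTR of the gene in GENCODE 29 on GRCh38: HIF1A at chr14:61747346-61747374, plus strand, VEGFA at chr6:43786286-43786314, plus strand, and PFKFB3 at chr10:6235286-6235314, plus strand.
HIF1A: atgcacctttTTATTTATTtatttttggc
VEGFA: ttgttatcatTTATTTATTggtgctactg
PFKFB3: gatgtgctatTTATTTATTtaatatgtat
These lie 407, 1724 and 2385 nt after the stop codon. HIF1A holds the nonamer 2 times, VEGFA and PFKFB3 1 time each. The second copy in HIF1A overlaps the first in the stretch shown, where only the first is in capitals.

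The nonamer occurred in 7 of 36 members (19.4%), SLC2A3, HK1, PFKM, PFKFB3, ENO2, HIF1A and VEGFA, and in 8.16% of 19113 genes, with median 3′UTR lengths of 1232 nt for the members and 1083 nt for all genes. The shorter ATTTA occurred in 27 of 36 members and 67.4% of genes. With AUF1 siRNA against control siRNA the 5 members with the nonamer and a ratio had a median of 0.10 (from -0.50 to 0.48), and the 18 without it 0.46. With HuR siRNA these medians were 0.52 (from -1.60 to 1.21) and 0.19. VEGFA and PFKFB3 thus lay on opposite sides with HuR siRNA although the longest annotated 3′UTR of each holds the nonamer. The transcripts measured need not hold these sites. With HuR siRNA all 3.99 FPKM of PFKFB3 lay in a 1677-nt transcript, too short for a site 2385 nt after the stop codon. Most VEGFA FPKM there lay in transcripts of 336, 414 and 606 nt, too short for a site at 1724 nt. The medians thus group genes by annotation, not by the transcripts measured. With AUF1 siRNA against HuR siRNA the medians were -0.14 and 0.27.

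The wider pathway was read from a list of 117 other genes of glycolysis and its branches, pyruvate entry, glycogen, oxygen sensing and hypoxia targets, of which 75 were kept. At PDL 55 against PDL 15, 11 of 70 with a ratio were higher, beside 8.17% of all genes, and 4 lower, beside 8.08%, by at least 2-fold, with a median of 0.19. Among the largest were the collagen lysyl hydroxylase PLOD2 (68.7 against 21.3 FPKM, 1.97) and the coactivator EP300 (7.50 against 1.98 FPKM, 1.83, but -0.48 with assembled transcripts). The largest on the lower side were ARNT2, a partner of HIF-type factors (-1.44), UGP2, which makes UDP-glucose (-1.35, but -0.75 with assembled transcripts), and QSOX1, a sulfhydryl oxidase (-1.16, but 0.43 with assembled transcripts). Of 32 other hypoxia targets kept, 5 were higher and 1 lower, and of 9 other glycolysis genes 2 were higher, BPGM (1.10) and the sugar transporter SLC2A8 (1.11, with overlapping bounds).

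With AUF1 siRNA against control siRNA, 5 of 66 pathway genes were higher, beside 7.46% of all genes, and 1 lower, beside 9.54%, with a median of 0.12. The higher count lay near the share of all genes. These genes were led by PGD, an enzyme of the pentose phosphate branch (75.7 against 20.2 FPKM, 1.67, but 0.81 with assembled transcripts), the glycogen phosphorylase PYGL (16.4 against 4.86 FPKM, 1.39, but 0.49 with assembled transcripts) and the cytokine MIF (51.3 against 19.4 FPKM, 1.18). PGD was at 125 FPKM at PDL 15, and the ratio of control siRNA to PDL 15 was -2.16. With HuR siRNA 6 of 68 were higher, beside 8.14% of all genes, and 0 lower, beside 10.0%, with a median of 0.14, so the higher count again lay near the share of all genes. The 6 included GPRC5A (104 against 22.8 FPKM, 1.84) and the collagen prolyl hydroxylase P4HA2 (93.0 against 24.5 FPKM, 1.58). AUF1 siRNA against HuR siRNA had 1 of 68 higher, PYGL (1.39), and 3 lower, beside 4.66% and 4.52% of all genes. The 3 were the heme oxygenase HMOX1 (-1.23), the pyruvate carrier MPC1 (-1.04) and P4HA2 (-1.03). For control siRNA against PDL 15, 6 of 68 were higher and 6 lower, beside 12.2% and 8.97% of all genes, with a median of -0.051, among them EP300 (2.47, but 0.18 with assembled transcripts), LOXL2 (2.13), ANGPTL4 (1.89), PDHB (-1.52) and PGM1 (-1.44).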

How the data were processed

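Total RNA of WI-38 cells was sequenced in 5 libraries, 1 per group. Per the labels' protocols, cDNA was made by single-primer isothermal amplification, not limited to polyadenylated RNA. Strand is not stated, so reads of overlapping or antisense genes may be mixed. Build hg19, Cufflinks 2.0.2, TopHat2 2.0.6 and Cuffdiff are named in the submitters' processing notes. Per the file headers, the authors deposited an FPKM per transcript with 95% bounds and a status, and a coverage signal, used here only to describe depth. Neither read numbers nor an annotation release could be taken from the sources used here.

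Each transcript was given a gene from the deposited identifiers, GENCODE 29, shared identifiers or position (98.7% of 160485). FPKM and bounds were summed per gene over annotated transcripts (Python 3.11.15, pandas 2.3.3). Genes with a FAIL transcript, small RNAs and genes under a mean of 1 FPKM were left out. Ratios use a pseudocount of 1 and are relative to the median gene, and 2-fold was the threshold. The plan did not say how genes at 0 would be treated; they were given no ratio. The assignment was changed after member values were seen, in that transcripts under an identifier shared by several genes were placed by position, which restored PKM, and assembled transcripts had to share the gene's identifier. Only the calculation of ratios was tested on simulated data, not the gene assignment or the handling of status and assembled transcripts.

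The members and gene lists were chosen with earlier results of these data known. Members described in full are those at least 2-fold apart in a comparison, and up to 3 higher and 3 lower other pathway genes whose bounds do not overlap are named per comparison, except 1 gene that is not reported here. BPGM and SLC2A8 were added after their values were seen. Alternatives were transcripts never LOWDATA, assembled transcripts added, 1 transcript per gene, a pseudocount of 0.1, no filter, the deposited scale, the other PDL 15 library as reference, and, added after seeing the data, genes at 0 kept and FPKM weighted by length.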

Additional observations from a re-analysis of the deposited data

How the results depend on the processing

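No paired analysis was possible because each group had 1 library and no test was made, and no library could be left out for the same reason. Of the recomputed counts and medians over the members, 88 stayed within 1.5 times the count or within the set tolerance, 35 moved and 6 changed sign. Of the recomputed ratios of single members, 449 stayed, 187 moved and 9 changed sign. Counts below are members at least 2-fold apart, and the cause of each change was not tested beyond what a setting itself does.

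For PDL 55 against PDL 15 the counts were 6 higher and 2 lower. The lower count was 1 without LOWDATA transcripts, 1 with 1 transcript per gene and 3 with assembled transcripts. The higher count was 3 with 1 transcript per gene, 3 without the filter on low values and 3 on the deposited scale. On that scale the median was 0.11, and ALDOC joined PFKP and CA12 on the lower side. LDHA turned to -0.35 without LOWDATA transcripts. Against control siRNA as the other reference SLC16A1 turned to -0.19, SLC16A3 to -0.72 and PKM to -0.046. Weighted by length, SLC16A1 turned to -0.48.

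For AUF1 siRNA against control siRNA (3 higher, 2 lower) the higher count was 6 without LOWDATA transcripts, 5 with 1 transcript per gene, 6 without the filter, 6 on the deposited scale, 7 against PDL 15 and 5 weighted by length. The lower count was 0 with assembled transcripts, 0 with 1 transcript per gene and 1 against PDL 15, where PKM turned to 0.54. For HuR siRNA against control siRNA (2 higher, 3 lower) the higher count was 1 with assembled transcripts, 6 without the filter, 6 on the deposited scale and 4 against PDL 15. The lower count was 0 with assembled transcripts and 1 against PDL 15. PKM turned to 0.078 and 0.45 in these 2 settings.

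For AUF1 siRNA against HuR siRNA (2 higher, 1 lower) the lower count was 0 without LOWDATA transcripts, 0 with 1 transcript per gene and 2 with a pseudocount of 0.1, and the higher count was 0 with assembled transcripts and 1 on the deposited scale. The median turned from 0.087 to -0.070 without the filter and -0.037 on the deposited scale. For control siRNA against PDL 15 (6 higher, 1 lower) the lower count was 3 without LOWDATA transcripts, 3 with 1 transcript per gene, 2 with a pseudocount of 0.1, 4 without the filter, 5 on the deposited scale and 2 with genes at 0 kept. The higher count was 3 with assembled transcripts, 3 with 1 transcript per gene and 3 on the deposited scale. The median turned from 0.10 to -0.060 without LOWDATA transcripts, -0.18 without the filter, -0.31 on the deposited scale and -0.10 weighted by length, where SLC16A1 turned to -0.22. The settings with genes at 0 kept and weighted by length were chosen after seeing the data. Read depth is unknown, so no limit for a value of 0 can be given.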
